A study of Mus musculus with 2 samples.

Results

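The 9 mouse Hox genes of paralog groups 11 to 13 (Hoxa11, Hoxc11, Hoxd11, Hoxc12, Hoxd12, Hoxa13, Hoxb13, Hoxc13 and Hoxd13) were examined in open chromatin of the embryonic hindbrain. They are 9 of the 39 Hox genes and 9 of 21938 protein-coding genes annotated on the main chromosomes. The genes were taken by name, and all 9 were found in the annotation. For each gene a window was drawn, its body plus 20 kb to each side of every transcript start, and each 5′ flank was followed to 200 kb beyond the group 13 gene. DNase-seq reads open chromatin from the places where the enzyme DNase I cuts DNA, and it had been done on whole hindbrain tissue of B6NCrl embryos at 11.5 days, with males and females pooled. There were 2 libraries of 1 group, biological replicates 1 and 2. They come from separate biosamples that carry the same donor label, and how independent they are is not known. Whether the difference between them is technical was not tested.

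Hox genes encode homeodomain transcription factors that set position along the body axis, and their order along each cluster follows the order in which they are switched on along that axis. The genes at the 5′ ends of the clusters are the relatives of Drosophila Abdominal-B and are known for their roles in the tail end of the trunk, the limbs, the hindgut and the urogenital tract. The hindbrain uses the genes at the other end of the clusters, and the posterior genes are known there as targets of Polycomb repression.

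The authors called peaks of 150 bp and wider hotspots in each library separately. A peak carries a height in their units, a whole number whose scaling is not known, so heights were also given as percentiles within the library. A site is a merged group of peaks of both libraries that overlap by at least 1 bp, and a shared site holds a peak of each library. The sequences of 8 shared sites are shown first, since a shared site is what both libraries saw near a posterior Hox gene. For 6 genes it is the shared site nearest to the gene with the highest mean of the height percentiles in the 2 libraries. Hoxa11 and Hoxc12 had no shared site nearest to them, and no site of either library was nearest to Hoxd12. The Hoxa13 upstream site and the site between Hoxd13 and Hoxd12 were chosen after their values and letters were seen. Each is the plus strand of build mm10, 5′ to 3′, and capitals mark any searched motif.
Hoxa13, downstream side, chr6:52257056-52257265: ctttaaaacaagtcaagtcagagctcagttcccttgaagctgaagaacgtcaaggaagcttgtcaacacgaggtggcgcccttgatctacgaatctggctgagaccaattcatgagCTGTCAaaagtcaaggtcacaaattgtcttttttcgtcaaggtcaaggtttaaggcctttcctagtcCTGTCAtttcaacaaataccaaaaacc
Hoxa13, upstream side, chr6:52270616-52270785: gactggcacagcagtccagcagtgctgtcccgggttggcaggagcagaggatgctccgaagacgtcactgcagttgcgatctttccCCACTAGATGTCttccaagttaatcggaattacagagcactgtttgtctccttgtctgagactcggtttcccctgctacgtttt
Hoxb13, chr11:96190356-96190545: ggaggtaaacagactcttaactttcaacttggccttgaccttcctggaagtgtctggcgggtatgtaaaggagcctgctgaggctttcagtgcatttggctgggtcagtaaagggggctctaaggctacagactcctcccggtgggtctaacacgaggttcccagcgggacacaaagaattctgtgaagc
Hoxc11, chr15:102956176-102956445: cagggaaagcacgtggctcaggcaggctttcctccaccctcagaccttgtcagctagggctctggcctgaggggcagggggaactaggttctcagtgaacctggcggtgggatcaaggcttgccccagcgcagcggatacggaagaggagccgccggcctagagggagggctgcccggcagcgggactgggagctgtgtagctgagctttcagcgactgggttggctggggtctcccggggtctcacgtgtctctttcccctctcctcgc
Hoxc13, chr15:102920776-102920925: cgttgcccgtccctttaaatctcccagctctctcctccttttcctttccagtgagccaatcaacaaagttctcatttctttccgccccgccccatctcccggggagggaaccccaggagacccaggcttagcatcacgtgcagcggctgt
Hoxd11, chr2:74686396-74686625: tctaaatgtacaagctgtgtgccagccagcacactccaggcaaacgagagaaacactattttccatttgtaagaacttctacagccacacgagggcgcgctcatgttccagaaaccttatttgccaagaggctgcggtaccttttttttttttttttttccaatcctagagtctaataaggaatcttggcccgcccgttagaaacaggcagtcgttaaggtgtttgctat
Hoxd13, chr2:74661896-74662045: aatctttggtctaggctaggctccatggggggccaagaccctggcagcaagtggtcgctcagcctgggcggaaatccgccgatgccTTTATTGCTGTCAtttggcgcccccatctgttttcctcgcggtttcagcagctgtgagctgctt
Hoxd13 to Hoxd12, chr2:74673036-74673205: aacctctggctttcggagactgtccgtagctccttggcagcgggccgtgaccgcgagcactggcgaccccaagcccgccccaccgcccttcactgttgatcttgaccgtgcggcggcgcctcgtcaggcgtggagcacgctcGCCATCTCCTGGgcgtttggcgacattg
The Hoxa13 downstream site lay in an exon of the noncoding transcript 9530018H14Rik, the Hoxc11 site in an intron and the Hoxd11 site in a noncoding exon of Hoxd11. The other 5 lay between genes, that of Hoxc13 at 178 bp and that of Hoxb13 at 3771 bp before the start of the gene. In the upstream Hoxa13 site and the site between Hoxd13 and Hoxd12, the capitals are a match to the CTCF core consensus with 1 letter off. CTCF is the zinc finger protein that holds chromatin loop boundaries. In the downstream Hoxa13 site the capitals are both copies of TGACAG, the Meis motif, on the minus strand. In the Hoxd13 site they are TTTATNG, a motif of posterior Hox proteins, beside a TGACAG on the minus strand. The sites of Hoxb13, Hoxc11, Hoxc13 and Hoxd11 held no match to any motif searched.

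Most posterior Hox promoters had no peak in replicate 1, and most had one in replicate 2. A promoter peak, one within 1 kb of a transcript start, was found in replicate 1 at 3 of 9 genes, against 68.7% of all protein-coding genes. In replicate 2 it was found at 7 of 9, against 71% of all. A shared promoter site was present at Hoxa13, Hoxb13 and Hoxc13, 3 of 9, against 67.5% of all genes. Hotspots gave the same counts, 3 of 9 in replicate 1 (68.9% of all genes) and 7 of 9 in replicate 2 (71.3%). With 9 neighbouring genes in 4 clusters, no test was made of these counts.

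Among the group 11 genes, which pattern the forearm and lower leg and the kidney, the libraries differed at 2 of 3 promoters. At Hoxa11 (chr6:52242106-52245810, minus strand) replicate 1 had no promoter peak, and the highest of replicate 2 stood at 100, the 87.2 percentile of that library. At Hoxd11 (chr2:74679557-74687016, plus strand) replicate 1 had none either, and replicate 2 had 1 peak, of height 104. At Hoxc11 (chr15:102954427-102957708, plus strand) neither library had a promoter peak. The only shared site nearest to Hoxc11, whose sequence is shown above, lay in its intron with heights of 39 in replicate 1 and 91 in replicate 2.

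The group 12 genes had no promoter peak in replicate 1. At Hoxc12 (chr15:102936757-102938609, plus strand) replicate 2 had a promoter peak of height 89. At Hoxd12 (chr2:74675013-74677705, plus strand), a gene active in the digits, there was none in either library, and no peak or hotspot of either library touched its body. The printed site between Hoxd13 and Hoxd12 lay 1808 bp before its start, with heights of 74 and 113. That site lay nearer to the body of Hoxd13, which is why no site counted as nearest to Hoxd12.

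The group 13 genes act in the digits, the hindgut and the genital tract (Hoxa13 and Hoxd13), the tail and prostate (Hoxb13) and the hair follicle and nail (Hoxc13). Hoxc13 (chr15:102921103-102928814, plus strand) had the highest promoter peak of the 9 genes in both libraries, 82 in replicate 1 and 118 in replicate 2, at the 88.7 and 93.7 percentiles. Hoxb13 (chr11:96194316-96197447, plus strand) stood at 38 and 92, the 53.3 and 82.9 percentiles. Hoxa13 (chr6:52257694-52260880, minus strand) stood at 25 and 105, the 24.6 and 89.5 percentiles. Hoxd13 (chr2:74668310-74671599, plus strand) had no promoter peak in replicate 1 and one of 116 in replicate 2, inside its coding sequence. In replicate 1 the 3 genes with a promoter peak thus ran from the 24.6 to the 88.7 percentile. In replicate 2 all 7 lay between the 81.2 and 93.7 percentiles. With 1 value per gene and library, the order of neighbours within replicate 2 has no error to be set against.

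Among the 30 other Hox genes, the pair of promoter height percentiles most like that of Hoxc13 was that of Hoxa7, at a distance of 0.861 percentile points over the 2 libraries. The nearest to Hoxb13 was Hoxc6, at 1.92 points, and the nearest to Hoxa13 was Hoxb2, at 23.8 points. The other 6 genes had no peak in replicate 1 and so no pair. The match for Hoxa13 was thus a loose one.

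The windows showed the same contrast more widely. Over the 222.4 kb that the 9 windows cover together, replicate 1 had 58 peaks and replicate 2 had 229. These are 2.61 and 10.3 peaks per 10 kb, against 0.551 and 0.715 over the genome. Of the replicate 1 peaks, 75.9% overlapped a peak of replicate 2 (exact Clopper-Pearson 95% interval 62.8 to 86.1), where over the genome 67.5% did. Of the replicate 2 peaks, 18.3% overlapped one of replicate 1 (13.55 to 23.97), where over the genome 51.6% did. The intervals cover counting error alone and treat neighbouring peaks as independent. By cluster the share for replicate 2 was 9.23% in HoxA, 17.9% in HoxB, 9.26% in HoxC and 44.2% in HoxD. The HoxD interval, 29.1 to 60.1, covers the value of the genome. The share for replicate 1 was 100%, 80%, 50% and 74.1% in the same order. Over the pooled windows the share for replicate 1 was near that of the genome, whose value lies inside its interval. The share for replicate 2 was below that of the genome. It was bound to be low, since 58 peaks of replicate 1 can overlap only a part of 229. It thus largely restates the difference in number of peaks and is no separate result.

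By gene, the ratio of replicate 2 to replicate 1 was largest at Hoxc13, with 1 peak in replicate 1 and 38 in replicate 2. Hoxc12 had 3 and 36, and Hoxc11 had 7 and 22. Hoxa11 had 7 and 46, and so had Hoxa13, whose window overlaps that of Hoxa11. Each of these 5 windows had at most 7 peaks in replicate 1 and at least 22 in replicate 2, the medians of all genes being 6 and 7. Hoxb13 had 15 and 67, the most of the 9 in replicate 2 and the largest difference in number. Hoxd11 had 9 and 23, Hoxd12 had 17 and 29, and Hoxd13 had 23 and 37. The HoxD genes thus had the smallest ratios of replicate 2 to replicate 1, 2.56 for Hoxd11, 1.71 for Hoxd12 and 1.61 for Hoxd13. The median ratio was 4.47 over the 9 genes and 1.14 over the 18859 genes with a peak in replicate 1. Windows within HoxA, HoxC and HoxD overlap and reach other genes, such as Hoxa10 and Evx2. Counts, ratios and hotspot cover of a window thus also describe its neighbours. By nearest Hox gene, sites of either library numbered 7 at Hoxa11, 36 at Hoxa13, 69 at Hoxb13, 9 at Hoxc11, 6 at Hoxc12 and 30 at Hoxc13. In HoxD they numbered 2 at Hoxd11, 0 at Hoxd12 and 41 at Hoxd13.

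**Figure D1:**
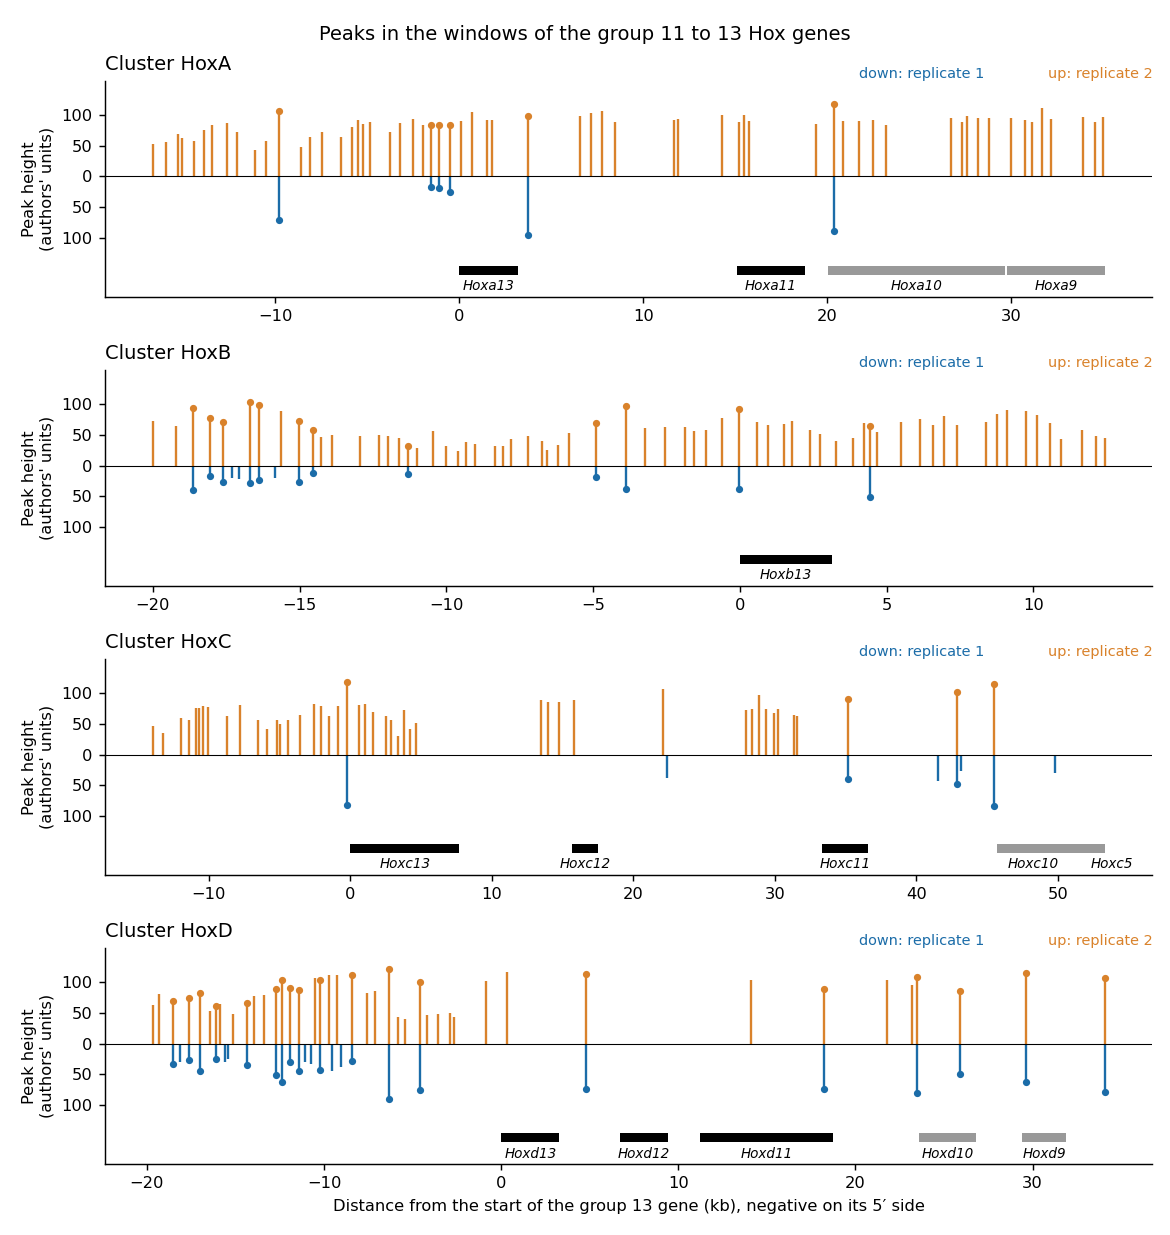
Peak heights in the authors' units along the 4 stretches of windows, by distance in kb from the start of the group 13 gene (negative on its 5′ side), with replicate 2 drawn upward, replicate 1 downward, dots on shared sites, black bars for the 9 genes and grey bars for other Hox genes. Replicate 2 peaks run through HoxA, HoxB and the Hoxc13 end of HoxC with few replicate 1 peaks opposite them, while in HoxD the replicate 1 peaks gather on the 5′ side of Hoxd13.

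Hotspots, the regions of raised cutting around the peaks, differed in number and in cover. There were 50 in replicate 1 and 103 in replicate 2 over the windows. They covered 6.43% of the 222.4 kb in replicate 1 and 43.6% in replicate 2, where the genome stood at 1.64% and 2.71%. The window of Hoxb13 was covered to 10.3% in replicate 1 and 77.8% in replicate 2. The body of Hoxb13 lay wholly inside hotspots of replicate 2 and wholly outside those of replicate 1. A single hotspot of replicate 2 ran for 10083 bp there (chr11:96187830-96197912), from upstream of the gene to just past its end. The widest of replicate 1 in the same window was 895 bp.

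Hoxc13 was covered to 1.13% and 43.1%, the lowest of the 9 in replicate 1, and its body to 0% and 57.0%. Hoxa13 was covered to 2.42% and 48.7%, and Hoxa11 to 2.57% and 38.4%. Hoxc12 was covered to 1.79% and 29.5%. In these 4 windows replicate 1 lay below the median of all genes, 3.08%, and replicate 2 lay far above its median, 4.76%. Hoxd13 was covered to 15.3% and 44.7%, the highest of the 9 in replicate 1, Hoxd12 to 12.1% and 30.9% and Hoxd11 to 5.97% and 19.2%. Hoxc11 changed least in percentage points, with 3.38% and 9.39%. No window had a higher cover in replicate 1 than in replicate 2.

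**Figure D2:**
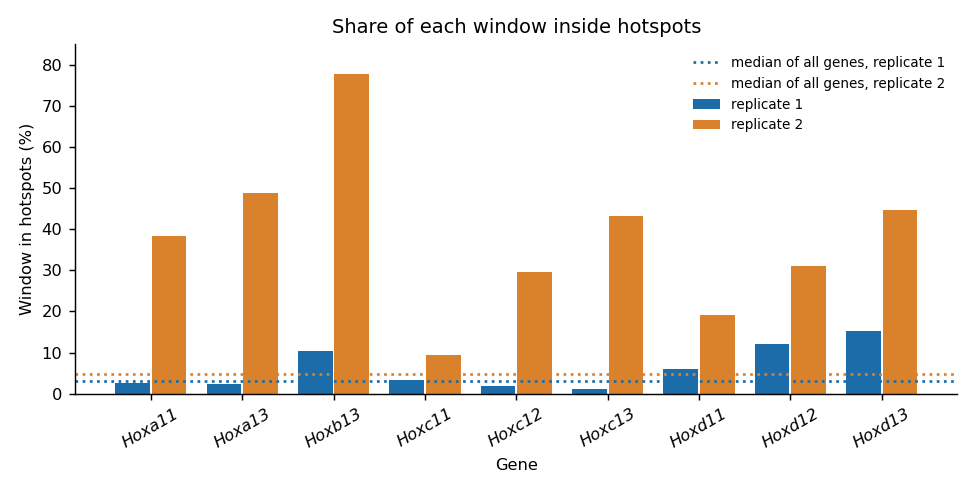
Share of each gene's window, in percent, inside hotspots of replicate 1 (blue bars) and replicate 2 (orange bars), with dotted lines at the medians of all genes, 3.08% and 4.76%. The orange bar is the taller for all 9 genes, from 9.39% at Hoxc11 to 77.8% at Hoxb13.

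The cover of Hoxb13 in replicate 2 ranked 2 among all 21938 genes, behind Dlx6 at 86.2% and before Pou3f3 at 76.9%. The ratio of peaks of Hoxc13 ranked 3, behind Mnx1 at 50 and Dmrta2 at 42. These ranks were looked up after the values were seen. The 9 genes did not share these places: in cover Hoxc11 ranked 5009 and Hoxd11 1106, and in the ratio Hoxd12 ranked 3483 and Hoxd13 4089.

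Merged over both libraries the windows held 229 sites, of which 41 were shared, 14 came from replicate 1 alone and 174 from replicate 2 alone. Over the genome 42.3% of sites were shared, against 9.84% in the HoxA windows, 17.4% in HoxB, 8% in HoxC and 38.8% in HoxD. The HoxD windows were thus close to the genome's share and the other 3 clusters below it. Between genes lay 24 of the 41 shared sites and 108 of the 174 of replicate 2 alone, and no share over the genome was set beside these counts.

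**Figure D3:**
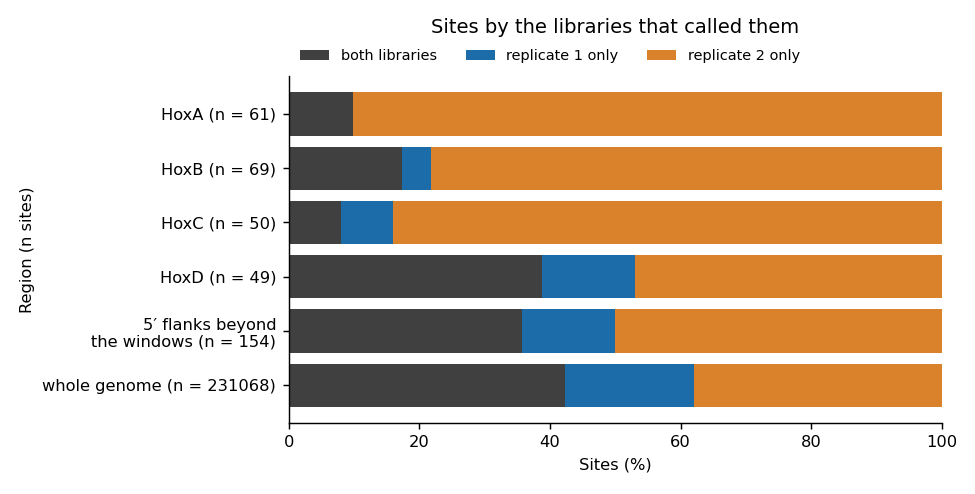
Share of sites, in percent, called in both libraries (grey), in replicate 1 alone (blue) and in replicate 2 alone (orange), for the windows of each cluster, the 5′ flanks beyond the windows and the whole genome. The grey part is 9.84% in HoxA and 8% in HoxC, and 38.8% in HoxD and 42.3% in the genome.

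The sites of replicate 2 alone were not the weak end of that library. In the windows their median height was 73, at the 70.9 percentile, where such sites over the genome had a median of 39, at the 31.4 percentile. Sites of replicate 2 alone nearest to Hoxa11 ran from 86 to 100, with a median of 91 over 7 sites. Those nearest to Hoxa13 had a median of 83 over 31 sites, and those nearest to Hoxb13 a lower one, 56 over 54 sites. Peaks of replicate 2 in the Hoxb13 window followed each other at a median spacing of 450 bp, inside its long hotspots.

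Shared sites stood much higher in replicate 2 as well. The height was greater in replicate 2 at all 41. Heights ran higher in that library over the genome too, with medians of 46 and 74 at shared sites. The percentile was greater at 38, with a median gain of 23.3 percentile points, against 3.39 over all shared sites of the genome. The gain reached 72.4 points just 5′ of Hoxa13, where 3 neighbouring sites had heights of 17, 18 and 25 in replicate 1 and of 84, 84 and 83 in replicate 2. The median percentiles of shared sites in replicates 1 and 2 were 54.9 and 82.4 in the windows, against 63.8 and 71.6 over the genome. Of the 41 sites, 11 lay above the 80 percentile in both libraries. These were 3 in HoxA, 2 in HoxC and 6 in HoxD, and none was in HoxB. No share over the genome was set beside the counts of 41, 38 and 11.

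In HoxA the 3 sites high in both libraries were 1 over a UTR of Hoxa10 at 170 bp from a Hoxa10 start (heights 88 and 117), the printed one downstream of Hoxa13 (95 and 98) and the printed one upstream (71 and 106). In HoxC they were the Hoxc13 promoter site and 1 at 131 bp from a Hoxc10 start (83 and 115). Of the 12 shared sites of HoxB, 8 lay between -18.6 and -11.3 kb of the Hoxb13 start, on both sides of the start of the gene Gm11535. The highest of them in replicate 2 stood at 104, and at 28 in replicate 1.

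In HoxD, 15 shared sites lay in the Hoxd13 window, and 13 of them were on its 5′ side. Evx2, a homeobox gene that lies head to head with Hoxd13 and shares its limb enhancers, had 6 of them over its body. Beyond Evx2 there were 4, and 3 lay between the genes. The highest was the printed Hoxd13 site (90 and 121), at 2339 bp from the Evx2 start. From the Hoxd13 start onward there were 2, the printed sites between Hoxd13 and Hoxd12 (74 and 113) and in a noncoding exon of Hoxd11 (73 and 89). Both of these stood above the 80 percentile in both libraries.

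Noncoding genes lie among the posterior Hox genes. At Hottip, a long noncoding RNA made beyond Hoxa13, the highest promoter peak was 18 in replicate 1 and 94 in replicate 2. At Hoxa11os, antisense to Hoxa11, replicate 1 had none and replicate 2 had one of 100, the height also found at Hoxa11, whose start is close by. At Hotair, which lies between Hoxc12 and Hoxc11, neither library had a promoter peak, while Hoxc12 had one in replicate 2. DNase-seq does not tell the strand, so openness at Hoxa11 and Hoxa11os cannot be told apart.

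The excess of replicate 2 over replicate 1, in number of peaks, was largest next to the genes along all 4 of the 5′ flanks. In the first 20 kb beyond the gene, replicate 1 and replicate 2 had 6 and 29 peaks beyond Hoxa13, 14 and 40 beyond Hoxb13, 1 and 23 beyond Hoxc13 and 21 and 33 beyond Hoxd13. Replicate 2 was higher there in all 4, and the excess in peaks was smaller further out, although the ratio between the libraries was not always so. From 20 to 40 kb they had 0 and 7, 1 and 8, 0 and 0, and 0 and 4. Over the whole 200 kb the totals were 20 and 78 beyond Hoxa13, 48 and 81 beyond Hoxb13, 25 and 59 beyond Hoxc13 and 29 and 45 beyond Hoxd13. Shared sites numbered 15, 34, 18 and 17 in the same order. In the flanks beyond the windows, 35.7% of 154 sites were shared and those of replicate 2 alone had a median height of 44.

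Within the HoxA flank the interval from 40 to 60 kb held 4 and 22 peaks. It holds Evx1, the homeobox gene beyond Hoxa13, whose promoter had no peak in replicate 1 and one of 104 in replicate 2. At Evx2, its counterpart in HoxD, the heights were 45 and 112. Several neighbours with broad activity were high in both libraries, 121 and 141 at Ube2z and 116 and 136 at Atp5g1 beyond Hoxb13, 107 and 138 at Calcoco1 beyond Hoxc13 and 110 and 132 at Lnpk beyond Hoxd13. Igf2bp1 (82 and 123), Snf8 (102 and 117) and Ttll6 (66 and 72), further genes beyond Hoxb13, had a peak in both too, and Calcoco2 one of 25 in replicate 1 alone. Evx1 thus had a promoter peak in replicate 2 alone, as Hoxa11, Hoxc12, Hoxd11 and Hoxd13 had, and these 8 other flank genes did not.

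**Figure D4:**
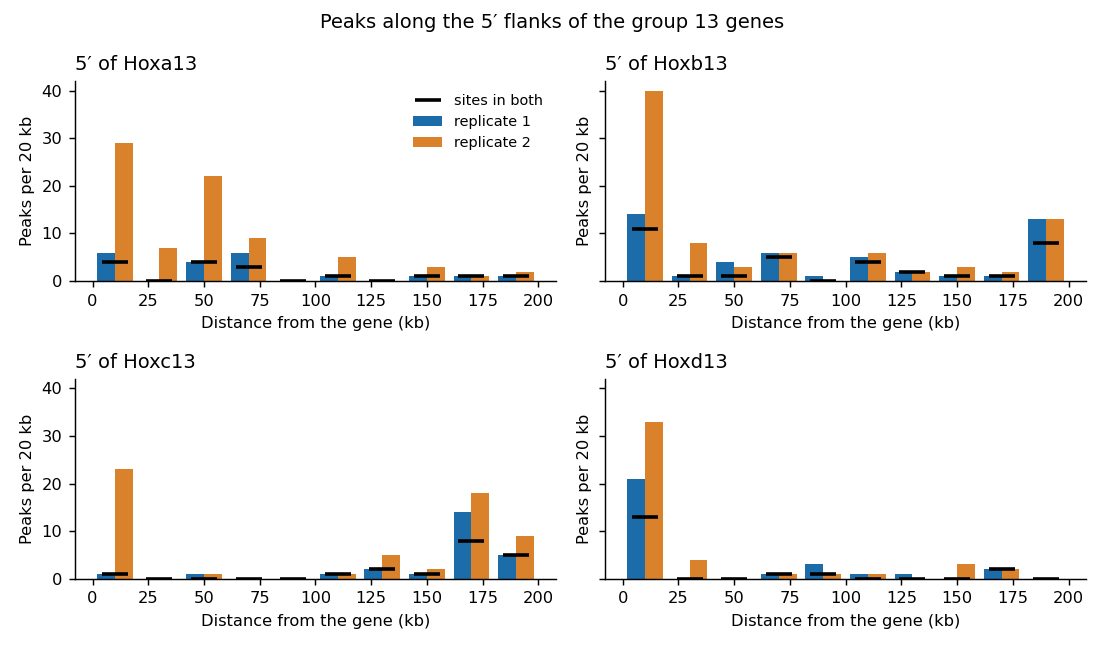
Peaks per 20 kb in replicate 1 (blue) and replicate 2 (orange) by distance in kb from the group 13 gene into its 5′ flank, with black marks for shared sites. The excess of replicate 2 over replicate 1 is largest in the first 20 kb in all 4 flanks, with 29 against 6 peaks at Hoxa13 and 23 against 1 at Hoxc13.

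Peak counts in replicate 1 were similar over the Hox groups. In replicate 2, groups 1 to 4 were the nearest to groups 11 to 13 in peak count and hotspot cover. The median window count was 7.5 peaks in replicate 1 and 42 in replicate 2 for the 12 genes of groups 1 to 4, 7 and 26 for the 8 of groups 5 to 7, 6.5 and 23 for the 10 of groups 8 to 10, and 7 and 37 for the 9 of groups 11 to 13. Median hotspot cover of the windows in replicate 2 was 33.3%, 15.6%, 16.7% and 38.4% in the same order. The median share of replicate 2 peaks that overlapped replicate 1 was 19.5%, 22.9%, 21.6% and 17.9%. A low median overlap was thus seen in every Hox group, although Hoxd8, Hoxd9 and Hoxd10 stood at 77.8%, 70% and 70%. At promoters, a shared site was present at 7 of 12, 5 of 8, 6 of 10 and 3 of 9 genes. No test was made of that order.

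**Figure D5:**
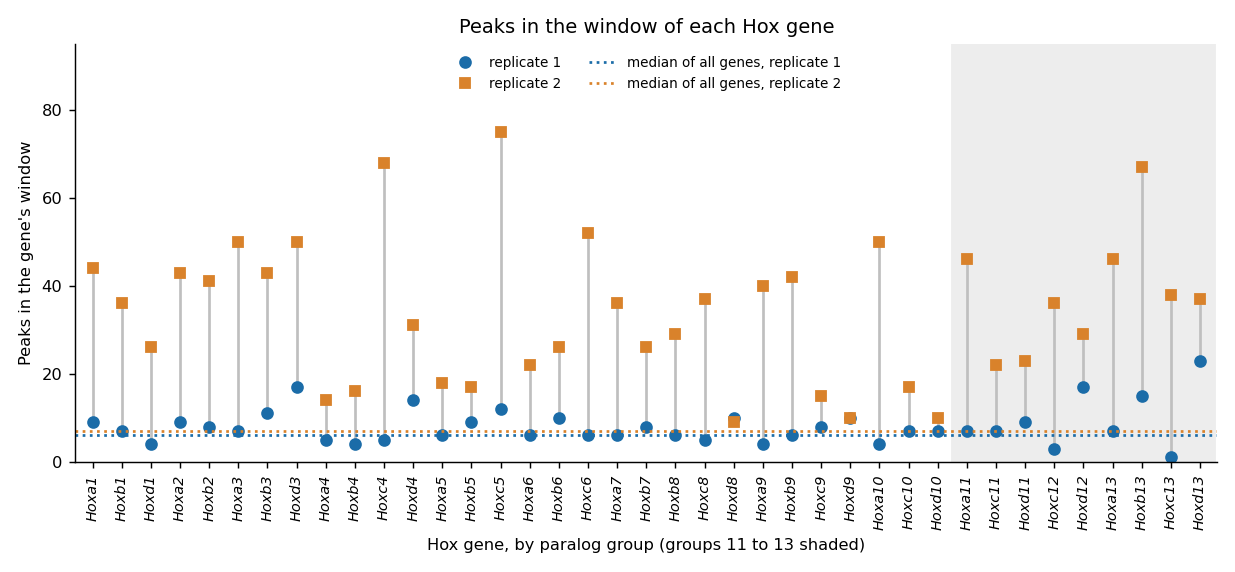
Number of peaks in the window of each of the 39 Hox genes in replicate 1 (circles) and replicate 2 (squares), ordered by paralog group with groups 11 to 13 shaded, and the medians of all genes, 6 and 7, as dotted lines. Squares lie above circles for all 9 shaded genes, from 22 at Hoxc11 to 67 at Hoxb13.

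The CTCF core consensus without a mismatch was in none of the 41 shared sites of the windows, which allows a share of up to 8.6%, and in 6.72% of shared sites over the genome (central 150 bp, both strands). With 1 letter off allowed, a setting added after the letters were seen, it was in 6 of 41, or 14.6% (exact 95% interval 5.57 to 29.2), against 20506 of 97657 shared sites over the genome. It was in 1 of the 174 sites of replicate 2 alone, or 0.575% (0.0145 to 3.16), against 4.65% of such sites over the genome, which lies above that interval. Of motifs for Hox proteins, TGATTNAT, bound with Pbx, was in 3 of 41, or 7.32% (1.54 to 19.9), against 1.45% over the genome. That genome value lies just below the interval. In sites of replicate 2 alone it was in 2 of 174, or 1.15%, against 3.09% over the genome. In shared sites TTTATNG was in 2, or 4.88% (3.93% over the genome), and TTTACGA, a group 13 motif, in 1, or 2.44% (0.222%). No correction was made for the number of motifs searched. The Meis motif TGACAG was in 3 of the 41, or 7.32% (11.98% over the genome), and the Sox motif ACAATGG in 1, or 2.44% (2.81%). A match is a description of letters, and the intervals cover counting error alone.

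The CpG content of the promoters, which the choice of genes did not use, varied among the 9 genes. The observed to expected CpG ratio over 1001 bp ran from 0.45 at Hoxb13 to 0.93 at Hoxa13, with a median of 0.727 against 0.552 for all genes. Hoxb13 lay below the median of all genes and the other 8 above it. Of the pair without a promoter peak in either library, Hoxc11 stood at 0.752 and Hoxd12 at 0.583, the lowest but that of Hoxb13.

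Markers were read at promoters in the same way. Of 12 hindbrain markers, 10 had a shared promoter site, among them Gbx2 (100 and 128) and Egr2 (105 and 124), and the other two, Hoxa2 and Hoxb1, had a peak in replicate 2 alone. Of 10 markers of tail bud and presomitic mesoderm, where posterior Hox genes are active, 3 had a peak in replicate 1 and 8 in replicate 2. The limb bud list was Tbx4, Tbx5, Pitx1, Hand2, Msx2, Fgf10 and Lmx1a, and 5 and 7 of its 7 genes had one. The hindgut and urogenital list was Cdx2, Shh, Foxa2, Pax2, Wt1, Tbx18 and Osr1, and 6 and 7 of its 7 genes had one. Of 6 forebrain markers 5 and 6 had one. Whether the listed genes are particular to their tissue was not tested. Within the tail bud list, T, Cdx2, Cdx4, Cyp26a1 and Fgf17 had none in replicate 1 and heights of 83, 86, 56, 91 and 55 in replicate 2, while Cdx1 and Msgn1 had none in either. Tbx6 (92 and 117), Wnt3a (41 and 82) and Nkx1-2 (50 and 86), the rest of that list, had a peak in both. A promoter peak in replicate 2 alone was thus found at 5 of the 10 tail bud markers and 4 of the 9 posterior Hox genes. It was also found at Hoxa2 (116) and Hoxb1 (90) of the hindbrain list. Tbx4 (95) and Tbx5 (94) of the limb list and Six3 (106) of the forebrain list had it too. Cdx2 stands in the hindgut list too. Of all protein-coding genes, 68.7% had a promoter peak in replicate 1, 71% had one in replicate 2 and 67.5% had a shared promoter site. Most genes with a promoter peak in replicate 2 thus had a shared site. No share of all genes with one in replicate 2 alone was set beside these counts. Whether cells of any of these tissues had a part in the result was not tested.

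Regulators of the posterior Hox genes had the following promoters. Over all protein-coding genes, 67.5% had a shared promoter site, and no test was made of the counts below. All 26 Polycomb genes examined, which encode the silencing complexes, had a shared promoter site, for example Ezh2 (125 and 142) and Suz12 (119 and 139). All 10 trithorax genes and all 8 genes of chromatin architecture had one too, Ctcf at 120 and 136. Of 10 genes that switch on posterior Hox genes in the tail bud, 5 had a shared site, with Gdf11 at 116 and 132. Of the Cdx factors in that list, Cdx2 and Cdx4 had a peak in replicate 2 alone and Cdx1 in neither.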

How the data were processed

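DNase-seq peaks and hotspots of 2 hindbrain libraries were used. Per the text deposited beside the files, both were called on mm10 from the alignments of each replicate, not on pooled reads. The sources used here do not name the aligner, the caller, their versions or the read depth. Each deposited peak has a signal, the authors' peak height, in whole numbers up to 149 with unknown scaling. Each deposited hotspot has the −log10 of a q value and a score made from it by the authors, which was not used. Replicate 1 had 150176 and replicate 2 194873 peaks on chromosomes 1 to 19, X and Y, after 32 and 60 repeated entries were dropped, with median heights of 36 and 50. Hotspots covered 44.7 and 73.7 Mb.

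Gene bodies and starts came from GENCODE M21 and sequences from the GRCm38 patch p6 reference, which is mm10. Windows, promoters, merged sites, shares with exact Clopper-Pearson 95% intervals and motif counts were computed in Python 3.11.15 (pandas 2.3.3, numpy 2.4.6, pysam 0.24.0, scipy 1.17.1) with samtools 1.23.1, and drawn with matplotlib 3.10.9. Merging and counting were tested on simulated peaks. With 1 group no test between groups was made. Named were the 9 genes, genes with a promoter site in a window or flank, the most similar other Hox gene, and marker and regulator genes. Per gene, the shared site nearest to it with the highest mean percentile was named too. The genes, lists and rules were chosen with earlier results of these data known. Alternatives were single libraries, peaks above the median height, other overlaps, equal list lengths and other window, promoter and flank widths.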

Additional observations from a re-analysis of the deposited data

How the results depend on the processing

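With 1 library alone in place of shared sites, counts ran from 3 to 7 genes with a promoter site, 55 to 216 sites in the windows, 45 to 189 nearest to one of the 9 genes, 117 to 253 in the flanks and 3 to 7 genes with a promoter hotspot. The main values were 3, 41, 34, 84 and 3, and the higher of each pair was always replicate 2. With only peaks above the median height of their library, there were 24 shared sites in the windows, 17 nearest to a gene and 41 in the flanks. A promoter of 2500 bp gave 5 genes with a shared site and 5 with a hotspot in both libraries, and hotspots at the highest value alone gave 1. Windows of 10 kb held 19 shared sites and flanks of 100 kb held 45. The CTCF core with 1 letter off gave 6 sites for 0. With lists of equal length, added after seeing the data for these values, replicate 2 still had 219 peaks in the windows and 18.7% of them overlapped replicate 1. No paired analysis was possible because there is only 1 group. Read depth is unknown, so the absence of a peak shows only that none was called.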
